A study of Mus musculus with 9 samples.

Results

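The comparison described here sets the striatum of *Shank3* KO mice against that of HET mice, with no reference to the WT striatum in the difference itself. It rests on 6 of the 9 libraries of the series, 3 KO and 3 HET, which were chosen by their genotype labels and replicate numbers. The remaining 3 libraries, from WT littermates, enter to estimate the spread between mice and to show where WT lies. They also count in the filter for tested genes and in the mean level by which genes were named. All mice were males aged 10 to 12 weeks on a C57BL/6J background from a line with the *Shank3B* allele, in which exons 13 to 16 of *Shank3* are targeted. HET mice have 1 such allele and 1 intact allele, KO mice have 0 intact alleles, and the striatum of 1 mouse made 1 RNA library. The comparison thus addresses the step from 1 intact allele to 0. Markers of the striatum were present in all 6 libraries, with 12449 to 26253 normalized counts of *Ppp1r1b* (DARPP-32, a phosphoprotein of spiny projection neurons), 2508 to 5086 of *Drd1* and 3426 to 7107 of *Adora2a*.

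Shank proteins are scaffolds of the excitatory postsynapse. Through their PDZ domain they bind SAPAP proteins, which link them to PSD-95 and so to glutamate receptors, and through a proline-rich stretch they bind Homer and the actin regulator cortactin. Shank3 is the member most prominent in the striatum, where spiny projection neurons of the direct and the indirect pathway receive glutamatergic input from cortex and thalamus.

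*Shank3* (ENSMUSG00000022623) occupies chr15:89499623-89560261 of GRCm38, on the plus strand. Exons 13 to 16 of its annotated transcript of 22 exons hold 417 of 7365 bases (5.66%) and span chr15:89531343-89532461 on the plus strand. They are shown because they are what distinguishes the genotypes, 1 exon a line in the direction of the gene, and no letter is in capitals since all of them are targeted.
Exon 13: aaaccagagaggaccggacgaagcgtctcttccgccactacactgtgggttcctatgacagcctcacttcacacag
Exon 14: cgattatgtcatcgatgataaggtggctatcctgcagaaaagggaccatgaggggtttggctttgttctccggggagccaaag
Exon 15: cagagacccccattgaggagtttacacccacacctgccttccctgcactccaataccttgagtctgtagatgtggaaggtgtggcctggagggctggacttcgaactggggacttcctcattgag
Exon 16: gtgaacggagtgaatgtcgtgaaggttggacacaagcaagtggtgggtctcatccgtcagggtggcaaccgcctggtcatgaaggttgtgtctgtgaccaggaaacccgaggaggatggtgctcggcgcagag

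The normalized count of *Shank3* was 7575, 7098 and 8049.8 in the HET libraries and 10237, 10798 and 10578 in the KO libraries. Each KO library lay above each HET library, and also above the 3 WT libraries, which had 7209, 8812 and 6043. On the log2 scale, the mean of log2(normalized count + 1) in KO minus that in HET (log2FC) was 0.48 with a standard error (SE) of 0.13. Within same-numbered pairs of a HET and a KO library the difference was 0.43, 0.61 and 0.39. The adjusted p was 1 in limma with Benjamini-Hochberg adjustment over all genes tested and 0.457 when the pairs entered the fit. Single pairs were also left out of the paired fit, a choice made after the data were seen. The adjusted p of limma for *Shank3* was then 0.999 without pair 1, 0.582 without pair 2 and 0.0199 without pair 3. Only the fit without pair 3 had genes that passed, 20 in all (0.14%). Each of these fits has 1 residual degree of freedom and leans on the variance shared among genes. The deposited value sums all transcripts of the gene, most of whose bases lie outside the targeted exons, so that it does not check the genotype labels, and single exons were not analysed here.

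The deposited table lists 15464 genes, of which 14239 had at least 10 normalized counts in at least 3 of the 9 libraries and were tested. Sums of normalized counts ran from 30830020 to 33790296 over the 6 libraries. These sums reflect the size factors and do not give the read depth. Replicate 3 of HET and of KO stood apart from the other libraries on the first principal component of the 6 (44.8% of the variance), and the same numbers in HET and KO deviated together from the means of their genotypes. The difference was therefore tested in an unpaired fit over 9 libraries and in a paired fit over the 6. Some of the results that involve the third pair are also given without it. Nothing in the sources used here says what the replicate numbers stand for.

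No gene differed between the KO and the HET striatum at an adjusted p under 0.05, in the unpaired fit or in the paired fit (limma with Benjamini-Hochberg adjustment). The smallest adjusted p was 1.0 unpaired and 0.0565 paired, the latter for *Ndst4*. An unadjusted p under 0.05 was found for 186 genes (1.31% of those tested) in the unpaired fit, 106 higher and 80 lower in KO. In the paired fit it was found for 705 genes (4.95%), of which 381 (2.68%) were higher and 324 (2.28%) lower. An even spread of p-values over 14239 genes would put 712 in this range. Of the 186 genes, 169 (90.9%) were also among the 705, of which they make up 24.0%. The median SE of a gene was 0.152 in the unpaired and 0.095 in the paired fit.

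**Figure D1:**
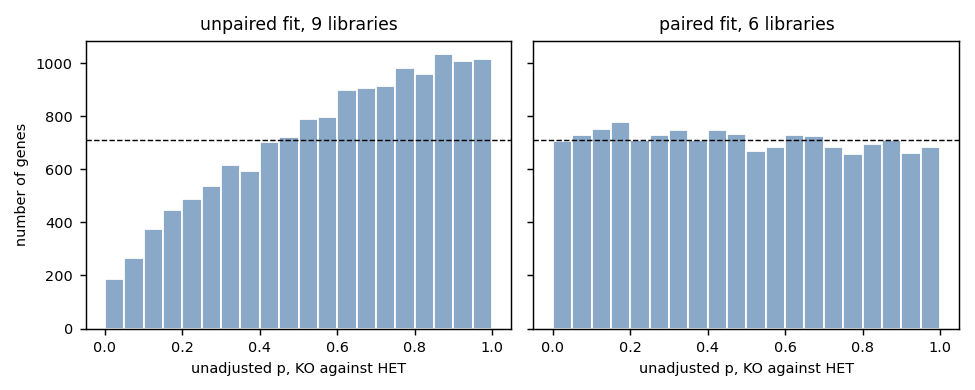
Number of genes (vertical axis) in each bin of unadjusted p (horizontal axis, bins of 0.05) for KO against HET, in the unpaired fit of 9 libraries and the paired fit of 6, with a dashed line at an even spread of 712 genes a bin. The first bin holds 186 genes in the unpaired fit, far under the line, and 705 in the paired fit, close to it.

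Fitted differences above 1.5-fold were found for 283 genes, 156 higher and 127 lower in KO. Of these, 240 had a mean under 100 normalized counts, although that range holds 2334 of the genes tested, and 43 came from the 11905 genes with a mean of 100 or more. The 3 KO libraries lay wholly above the 3 HET libraries for 321 genes (2.25%) and wholly below for 312 (2.19%), 633 genes in all (4.45%). The log2 difference had the same sign in all 3 pairs for 1834 genes (12.9%) higher in KO and 1799 genes (12.6%) lower. Genes are not independent replicates, and as a description over 14239 of them the differences of pair 1 correlated with those of pair 2 at a Pearson r of 0.08, those of pairs 1 and 3 at 0.08 and those of pairs 2 and 3 at −0.08. The SD of the log2 differences was 0.284 in pair 1, 0.342 in pair 2 and 0.387 in pair 3.

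The genes named next had a mean of at least 100 normalized counts, no overlap between their KO and HET libraries, and the smallest unadjusted p in their direction. Among those higher in KO, *Slc5a6* came first and *Shank3* second. *Slc5a6*, the sodium-dependent multivitamin transporter that carries biotin and pantothenate, had 319, 268 and 315 normalized counts in HET and 439, 556 and 585 in KO. All 3 HET libraries were low, and the KO libraries spread over a range that meets that of WT (585, 612 and 517). Its log2FC was 0.80 (SE 0.14), with an adjusted p of 0.634 in the paired fit of limma. With an empirical null in the unpaired fit of limma, where 2 genes (0.014%) passed, the adjusted p was 0.00175. That null divided the test statistics by an SD of 0.706, which made every p smaller. With an empirical null in the paired fit of limma, where the SD was 1.033, the adjusted p of *Slc5a6* was 0.953.

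*Homer2* encodes a postsynaptic scaffold that binds Shank proteins and group I metabotropic glutamate receptors. It had 1291, 1366 and 1376 normalized counts in the HET libraries and 1586, 1673 and 1663 in the KO libraries. The genotypes were separate and each spread little, and the WT libraries (1694, 1419.6 and 1650.3) lay above HET and around KO. The log2FC was 0.29 (SE 0.09) and the 3 pairs gave 0.30, 0.29 and 0.27. As the named genes were chosen by a small p and no overlap, even pairs among them are a description only. The adjusted p was 0.922 in the paired fit of limma.

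*Dclre1a*, a nuclease of DNA cross-link repair, showed a similar evenness over the pairs, at 0.67, 0.64 and 0.66. Its normalized counts were 189, 194 and 274 in HET and 302, 304 and 434 in KO. The third library was the highest of its genotype in both, and the lowest KO library exceeded the highest HET library. *Mul1*, a ubiquitin ligase of the outer mitochondrial membrane, had 1161, 1075 and 1328 in HET and 1652, 1683 and 1637 in KO. Its log2FC was 0.49 (SE 0.15). The adjusted p of *Mul1* in the paired fit of limma was 0.999 without pair 1, 0.624 without pair 2 and 0.0244 without pair 3. *Bcl6*, a transcriptional repressor, had a log2FC of 0.43 (SE 0.13). Of the other genes of this kind, *Setbp1* had a log2FC of 0.33, *Cers5* (a ceramide synthase) 0.32, *Adgrg6* (an adhesion G protein-coupled receptor) 0.76 and *C530008M17Rik* 0.44, which became 0.28 without KO replicate 2. *Adgrg6* differed by 0.02, 1.11 and 1.13 in pairs 1, 2 and 3. The paired adjusted p of limma was 0.574 for *Dclre1a* and between 0.698 and 0.958 for the others named in this paragraph.

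Among the genes lower in KO, *Acvrl1* stood first. It encodes ALK1, a type I receptor for bone morphogenetic proteins that is known from endothelial cells. The HET libraries had 1460.2, 785 and 1261 normalized counts and the KO libraries 758, 463 and 589. The KO libraries were lower in every pair, although the second HET library came close to the first KO library. WT had 1371, 1471 and 984, near HET. The log2FC was −0.94 (SE 0.25), the pairs gave −0.95, −0.76 and −1.10, and the adjusted p in the paired fit of limma was 0.122, the second smallest of all genes. With pair 1, 2 or 3 left out of that fit it was 0.890, 0.158 and 0.004.

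*Slc11a2*, the divalent metal transporter DMT1, had 1984, 1598 and 1629 normalized counts in HET and 1321, 1461 and 1339 in KO. The first HET library was at the level of WT (1959, 1969.5 and 2011), and the others lay between WT and KO. Its log2FC was −0.33 (SE 0.10), and the pairs ranged from −0.59 in pair 1 to −0.13 in pair 2. *Dab2*, an endocytic adaptor, was more even, with 266, 336 and 257 in HET, 185, 239 and 182 in KO and pair differences of −0.52, −0.49 and −0.50. Its log2FC was −0.51 (SE 0.17). In the paired fit of limma the adjusted p was 0.958 for *Slc11a2* and 0.897 for *Dab2*.

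The other genes lower in KO included 2 with known roles in vessels. *Notch4*, a Notch receptor of endothelial cells, had 419, 277 and 419 normalized counts in HET and 179, 209 and 234 in KO, and its pairs differed by −1.22, −0.40 and −0.84. *Edn3*, which encodes endothelin 3, had a log2FC of −0.49 (SE 0.17). For *Pou3f1*, a transcription factor of the POU family, the log2FC was −0.42 (SE 0.14) and pair 3 held the largest difference, −0.77, and the log2FC became −0.24 without both libraries of that pair. *Nup214* (a nuclear pore protein) was at −0.31, *Pdzd7* (a PDZ domain protein) at −0.49, *Klhl1* (a Kelch-like protein) at −0.53, *Pard6g* (a cell polarity protein) at −0.46, *Rcn1* (a calcium-binding protein of the endoplasmic reticulum) at −0.44 and *Ptpn7* (a tyrosine phosphatase) at −0.83. *Ptpn7* had KO libraries from 71.1 to 154 and an unpaired SE of 0.41, and its log2FC became −0.55 without KO replicate 3. In the paired fit of limma the adjusted p of the genes in this paragraph lay between 0.698 and 0.932.

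*Ndst4* had the smallest paired p of all genes. It encodes a sulfotransferase that modifies heparan sulfate, and is named after its values were seen. It had 25.4, 212 and 37.5 normalized counts in HET and 158, 777 and 194 in KO. The second library was the highest of each genotype, the genotypes overlapped, and a two-sided exact permutation test over the 6 libraries gave p = 0.3. The pairs differed by 2.59, 1.87 and 2.34, and the log2FC was 2.27 with an SE of 0.93 unpaired and 0.18 paired. Among the WT libraries (586, 89.6 and 94.1) the first stood far above the others.

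*Abi3bp*, a protein of the extracellular matrix, was high in some of the same libraries. Its normalized counts were 401, 595 and 352 in HET, 794, 2153 and 718 in KO and 1867, 429 and 446 in WT. The second KO library and the first WT library were the high ones, and the 3 pairs differed by 0.98, 1.85 and 1.03 (paired adjusted p = 0.457, limma). *Nmbr*, the neuromedin B receptor, had 26.3, 57.7 and 47.7 in HET and 103, 398 and 108 in KO, with 261, 57.1 and 47.5 in WT. Its pairs differed by 1.93, 2.76 and 1.16 (paired adjusted p = 0.531, limma). Without pair 3 the adjusted p of limma was 0.000327 for *Ndst4*, 0.00128 for *Abi3bp* and 0.00108 for *Nmbr*. The paired fit without pair 1 or without pair 2 called none of these genes. The fitted log2FC of *Abi3bp* went from 1.29 to 0.79 without KO replicate 2, and that of *Nmbr* from 1.95 to 1.32.

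**Figure D2:**
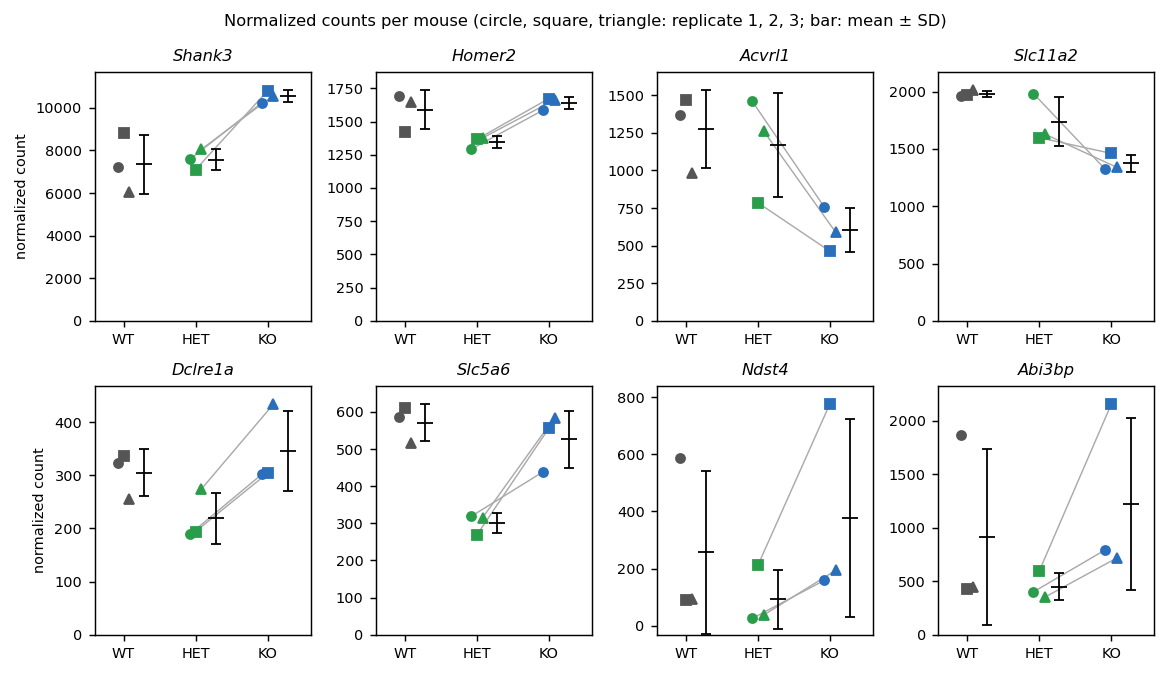
Normalized counts (vertical axes) of 8 genes in the 3 WT, 3 HET and 3 KO libraries, with circle, square and triangle for replicates 1, 2 and 3, grey lines joining same-numbered HET and KO libraries, and bars for the mean and SD of a genotype. KO and HET do not overlap for *Shank3*, *Homer2*, *Acvrl1*, *Slc11a2*, *Dclre1a*, *Slc5a6* and *Abi3bp*, whereas for *Ndst4* they overlap while each of the 3 lines goes up.

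Genes that both kinds of spiny projection neuron express were lower in the KO striatum in most cases. Of 26 such genes, all tested, 23 had a log2FC below 0 and the median was −0.28, against −0.001 for all genes tested. In the paired fit, 13 of the 26 had an unadjusted p under 0.05 and were lower in KO, against 2.28% of all genes, and 0 were higher. In the unpaired fit it was 1 gene, *Scn4b*, against 0.562% of all genes. No member had an adjusted p under 0.05 in either fit of limma. In a piece of tissue, fewer cells of a type and less RNA per cell cannot be told apart.

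*Scn4b*, a beta subunit of sodium channels, had 37025, 25713 and 35498 normalized counts in HET and 27738, 20378 and 17015 in KO, and its pairs differed by −0.42, −0.34 and −1.06. The groups overlapped, since the first KO library lay above the second HET library. *Ppp1r1b* had 26253, 24496 and 19984 in HET and 24272, 20303 and 12449 in KO. The third pair held the largest difference for both genes, and KO replicate 3 was the lowest of the 6 libraries. The phosphodiesterases *Pde10a* and *Pde1b* had log2FC values of −0.38 and −0.38, the G protein regulator *Rgs9* −0.39, the small GTPase *Rasd2* −0.43 and the retinoid receptor *Rxrg* −0.39. By contrast, *Gad1* and *Gad2*, the enzymes that make GABA, had log2FC values of 0.01 and 0.12.

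The size of this difference depended on the third pair. The median log2 difference of the 26 genes was −0.17, −0.006 and −0.71 in pairs 1, 2 and 3. Without HET replicate 3 the median log2FC was −0.18, without KO replicate 3 it was −0.14 and without both −0.11, and in the paired fit without pair 3, 5 genes were lower and 2 higher at an unadjusted p under 0.05, against 2.26% and 3.69% of all genes. All 3 pairs were below 0 for 13 of the 26 genes, against 12.6% of all genes, and above 0 for 0. Both directions occurred among the pairs of the other 13, such as *Pde10a*, whose pairs differed by −0.40, 0.05 and −0.80. The summed normalized count of the 26 genes was 381833, 299399 and 413463 in the HET libraries and 330102, 293650.1 and 256856 in the KO libraries. The WT libraries ran from 242474 to 431121, which takes in all 6 sums, and for each of the 26 genes the KO mean and the HET mean lay within the range of the WT libraries. Oligodendrocyte markers moved with these genes in the third pair. Their sum was 263499, 294007 and 293588 in HET and 259652, 285339 and 164388 in KO, with KO replicate 3 apart from the other 5 libraries. Markers of cortical glutamatergic neurons went the other way, with a pair 3 median of 0.27 and their highest sum, 106534, in KO replicate 3. The part of both kinds of marker in the result was not tested.

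Genes of a single pathway were counted apart. Of 9 indirect-pathway genes tested, all had a log2FC below 0, with a median of −0.13, and 2 were lower at an unadjusted paired p under 0.05, against 2.28% of all genes. That median depended on single libraries, and went from −0.27 without KO replicate 1 to −0.056 without KO replicate 3. Pairs 1, 2 and 3 had medians of −0.154, −0.076 and −0.505, and without replicate 3 of both genotypes the list median was −0.095. *Adora2a*, the adenosine receptor of the indirect pathway, had 5585, 4826 and 7107 normalized counts in HET and 4627, 3960.0 and 3426 in KO. No KO library reached the lowest HET library, and the third pair was again the one furthest apart, at −1.05. *Penk* (enkephalin) had a log2FC of −0.24 and *Drd2* −0.42. Of 10 direct-pathway genes, 1 was lower at that p, against the same 2.28%, namely *Drd1*, with a log2FC of −0.33 and pair differences of −0.35, 0.01 and −0.66. The median of the direct-pathway genes was −0.04, and *Tac1* and *Pdyn* were at −0.03 and 0.03.

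Immediate early genes, which neurons transcribe within minutes of synaptic activity, were higher in the KO striatum in most cases. Of 26 such genes, all tested, 21 had a log2FC above 0 and the median was 0.22. At an unadjusted p under 0.05, 10 were higher in the paired fit, against 2.68% of all genes, and 0 were lower. The unpaired fit gave 1, *Dusp4*, against 0.744%. No member had an adjusted p under 0.05 in either fit of limma. The log2 difference was above 0 in all 3 pairs for 12 genes, against 12.9% of all genes, and below 0 in all 3 for 0.

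*Fos*, a subunit of the AP-1 transcription factor, had 761, 1398 and 1615 normalized counts in HET and 1068, 2752 and 1828 in KO. Its pairs differed by 0.49, 0.98 and 0.18, while the genotypes overlapped, since the first library of each was far under the other libraries of its genotype. *Fosb* had 522, 583 and 438 in HET and 758, 1093 and 480.4 in KO. Here KO replicate 3 lay within the HET range and the other KO libraries above it. *Btg2*, an antiproliferative gene induced by activity, had 406, 941 and 537 in HET and 481, 1748 and 672 in KO, and the second library was the highest of each genotype. *Dusp4*, a phosphatase of MAP kinases, had 132, 130.3 and 153 in HET and 194, 205 and 175 in KO. Its genotypes did not overlap, and its log2FC was 0.47 (SE 0.17).

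Other members at that paired p were the nuclear receptors *Nr4a1*, *Nr4a2* and *Nr4a3*, with log2FC values of 0.30, 0.34 and 0.50, and *Npas4*, *Fosl2* and *Dusp6*, with 0.42, 0.40 and 0.20. *Arc*, which regulates the endocytosis of AMPA receptors, was at 0.28 with pair differences of 0.14, 0.68 and 0.01. *Egr1* was at 0.12 and *Egr3* at −0.05, so that the family of Egr transcription factors had members on both sides of 0. The list median was 0.23, 0.49 and 0.019 in pairs 1, 2 and 3. Without replicate 3 of both genotypes it was 0.34, and in the paired fit without pair 3, 17 of the 26 were higher at an unadjusted p under 0.05, against 3.69% of all genes. *Nr4a3*, *Fos*, *Fosb* and *Fosl2* then had an adjusted p under 0.05 in limma, of 0.00845, 0.0199, 0.0262 and 0.049. No gene did so when pair 1 or pair 2 was left out in place of pair 3. Without KO replicate 2 the list median was 0.098, without HET replicate 1 it was 0.11 and without HET replicate 3 it was 0.35. Of the border tissues, markers of thalamus and septum and of ependymal cells were also high in pair 2. Meningeal and cortical markers were not, with medians of −0.79 and −0.20 in that pair. Over 9 thalamic and septal markers the median of that pair was 0.56, with sums of 3413 to 3701 normalized counts in HET and 3366 to 4647 in KO. Over 9 ependymal markers it was 0.49, with sums of 600.5 to 740.2 in HET and 414 to 997 in KO. KO replicate 2 had the highest sum of both, and their part in the values of the immediate early genes was not tested. The KO mean lay within the range of the WT libraries for 13 of the 26 genes and the HET mean for 19.

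**Figure D3:**
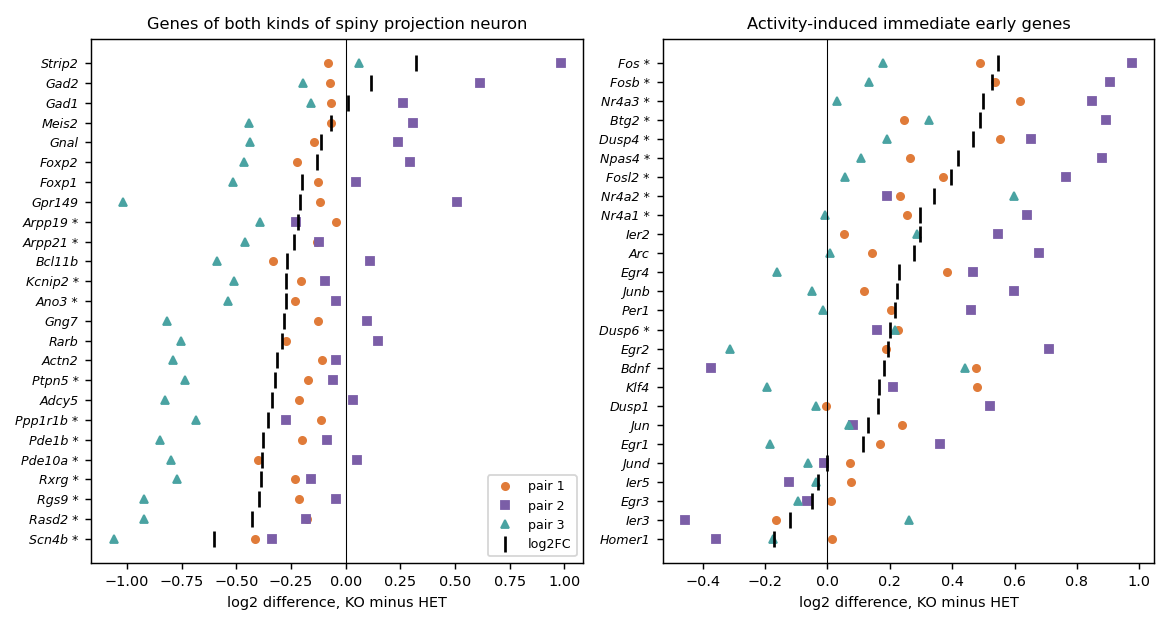
Log2 difference of KO minus HET (horizontal axes) for 25 of the 26 genes of both kinds of spiny projection neuron (left) and for 26 immediate early genes (right), with circle, square and triangle for pairs 1, 2 and 3, a bar for the log2FC and an asterisk where the unadjusted paired p is under 0.05. On the left most triangles of pair 3 lie far below 0, with a median of −0.71 over the 26 genes, and on the right most squares of pair 2 lie above it, with a median of 0.49.

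Promoters of immediate early genes carry sites for CREB, the factor that responds to cAMP and calcium, whose core is TGACG or, on the other strand, CGTCA. The 250 bases before the start of 3 of the 10 genes are shown, from RefSeq on GRCm38.p6 and in the direction of the gene, with each match in capitals. A full site, TGACGTCA, holds both cores and was counted once. *Fos* is at chr12:85473640-85473889 on the plus strand, *Fosb* at chr7:19310046-19310295 on the minus strand and *Btg2* at chr1:134079156-134079405 on the minus strand.
Fos: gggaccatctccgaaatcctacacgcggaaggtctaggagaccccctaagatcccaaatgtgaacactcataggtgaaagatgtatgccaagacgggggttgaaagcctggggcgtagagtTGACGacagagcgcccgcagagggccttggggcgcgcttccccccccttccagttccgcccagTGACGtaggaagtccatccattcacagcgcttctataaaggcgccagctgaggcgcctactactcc
Fosb: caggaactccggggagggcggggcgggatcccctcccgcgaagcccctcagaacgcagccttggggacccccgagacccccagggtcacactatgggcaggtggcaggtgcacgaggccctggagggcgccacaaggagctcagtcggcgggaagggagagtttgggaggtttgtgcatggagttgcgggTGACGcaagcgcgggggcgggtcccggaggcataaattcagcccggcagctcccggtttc
Btg2: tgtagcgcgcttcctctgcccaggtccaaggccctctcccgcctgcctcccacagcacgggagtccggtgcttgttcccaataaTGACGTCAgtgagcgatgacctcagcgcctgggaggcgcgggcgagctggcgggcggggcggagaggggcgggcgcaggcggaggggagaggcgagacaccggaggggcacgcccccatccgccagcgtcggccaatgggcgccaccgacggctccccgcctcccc

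A promoter was found in the table for 21 of the 26 genes by symbol. A core occurred in at least 1 promoter of 15 of them, and in 11 of the 17 genes with a single promoter (64.7%), against 17.8% of the 32851 promoters of the table. Of the 10 genes with the low paired p, 9 had a promoter and 7 of these held a core. Letters that match are a description of the sequence, and binding was not measured.

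Few of the scaffold partners of Shank3 and of the receptors they hold had a low p, with *Homer2* first among them. Of 6 Shank and Homer genes other than *Shank3* and with *Sharpin* among them, 2 were higher at an unadjusted paired p under 0.05, against 2.68% of all genes, and 0 were lower. The second was *Shank2*, with 4990.3, 5535 and 6185 normalized counts in HET and 5565, 6185 and 7189.6 in KO and a log2FC of 0.18. Its pairs differed by 0.16, 0.16 and 0.22, while the genotypes overlapped. *Shank1* was at 0.15, *Homer1* at −0.17 and *Homer3* at 0.02. Of 16 genes of PSD-95 and SAPAP scaffolds and of 19 subunits of AMPA, NMDA and kainate receptors, 0 had an unadjusted p under 0.05 in either fit, and their medians were 0.016 and 0.029.

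Among the 7 metabotropic glutamate receptors, 1 was higher and 1 lower at that paired p, against 2.68% and 2.28% of all genes. *Grm2*, an autoreceptor of glutamatergic terminals, had 1047, 1269 and 1889 normalized counts in HET and 1407, 1495 and 2662 in KO. KO was higher in each pair, by 0.43, 0.24 and 0.49, and the genotypes overlapped because both were highest in the third library. The paired adjusted p of *Grm2* was 0.767 in limma. Of 13 neurexins, neuroligins and LRRTMs, 1 was higher (*Lrrtm4*, log2FC 0.18), of 13 GABA-A receptor subunits 1 was higher (*Gabrg1*, 0.30), and of 28 genes of vesicle release 2 were higher (*Unc13b*, 0.23, and *Pclo*, 0.14) and 1 lower (*Unc13c*, −0.41).

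Oligodendrocyte markers were lower in KO in the third pair and nearly level in the others. All 20 had a log2FC below 0, with a median of −0.30, and 5 had an unadjusted paired p under 0.05, against 2.28% of all genes. The medians of pairs 1, 2 and 3 were −0.013, −0.02 and −0.80, and the list median became −0.19 when HET replicate 3 was left out, −0.094 when KO replicate 3 was and −0.04 when both were. *Mal*, a proteolipid of myelin, had 11543, 10695 and 11110.4 normalized counts in HET and 9946, 10695 and 5704 in KO, so that 5 libraries were close and KO replicate 3 was lowest. *Opalin*, another myelin protein, had 999, 1168 and 848 in HET and 886, 976 and 509 in KO. WT mice also varied, with sums of 198168, 187155 and 305357 over the 20 markers. The KO mean lay within the range of the WT libraries for 18 of the 20 and the HET mean for 13. For the 5 oligodendrocyte precursor markers tested the median was 0.066, and 0 had an unadjusted paired p under 0.05.

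Markers of interneurons had both signs, with more of them below 0. Of 15 tested, 10 had a log2FC below 0 and 5 above, with a median of −0.26. The medians of pairs 1, 2 and 3 were −0.19, −0.058 and −0.32. Without replicate 3 of both genotypes the list median was −0.06. At an unadjusted paired p under 0.05, 3 were lower, against 2.28% of all genes, and 1 was higher, against 2.68%. The latter was *Calb2*, which is also among the markers of thalamus and septum. *Chat* and *Slc18a3*, which make and package acetylcholine in cholinergic interneurons, had log2FC values of −0.54 and −0.42. *Slc18a3* had 153, 163 and 219.7 in HET and 134, 129 and 132 in KO, with no overlap and the most distant value in HET replicate 3. *Pthlh* was at −0.51. *Calb2* (calretinin) had 152, 163 and 142 in HET and 228, 571 and 187 in KO, without overlap, and the second KO library stood far above the rest. *Sst* and *Npy*, from a different class of interneuron, had log2FC values of 0.18 and 0.12.

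Vessel markers included 3 of 17 that were lower at that paired p, against 2.28% of all genes, and 0 that were higher. *Acta2*, the smooth muscle actin of arterioles, had 348, 724 and 630.1 in HET and 255, 476 and 448 in KO, and its pairs differed by −0.44, −0.60 and −0.49. The genotypes overlapped, and the paired p was the smallest of the vessel markers, with an adjusted p of 0.698 in limma. *Myh11* and *Cldn5* were at −0.29 and −0.25. Summed, the 17 markers ran from 14032 to 17715 in HET and from 14368 to 15538 in KO, and the part of vessel content in the lower values of *Acvrl1* and *Notch4* was not tested. Of 12 microglia markers 0 and of 15 astrocyte markers 2 (*Gjb6*, −0.31, and *Ntsr2*, −0.23) had an unadjusted paired p under 0.05.

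Markers of cells at the border of the striatum varied between mice of a genotype. The summed count of 10 markers of meningeal fibroblasts was 1482, 4998 and 2436 in HET and 1191, 2839 and 3586 in KO, and the list medians of the pairs, −0.38, −0.79 and 0.62, had both signs. The list median of −0.20 turned to 0.27 without HET replicate 2 and to 0.29 without KO replicate 1. Of 16 markers of cortical glutamatergic neurons 0 had an unadjusted paired p under 0.05, and their sum was 68528, 86515 and 83657 in HET and 75669.6, 76014 and 106534 in KO, highest in KO replicate 3. Markers of thalamus and septum had a median of 0.22 over 9 genes, and pair 2 alone reached 0.56. At that paired p 3 of them were higher (*Calb2*, *Prkcd* and *Trpc4*), against 2.68% of all genes, and 1 was lower (*Rora*), against 2.28%, and the unpaired fit gave 1 higher and 1 lower, against 0.744% and 0.562%. Without KO replicate 2 the median was 0.031, and without HET replicate 1 it was 0.073. For the ependymal markers the pairs gave 0.41, 0.49 and −0.54, and the list median of 0.20 turned to −0.13 without KO replicate 2 and to −0.013 without KO replicate 1. *Ttr*, the leading transcript of choroid plexus, was under the filter, with 1.03, 26.6 and 5.95 normalized counts in HET and 1.71, 3.24 and 0 in KO. Of 3 blood markers tested, 2 were lower at that paired p, against 2.28% of all genes, *Hba-a2* at −0.40 and *Hbb-bt* at −0.41. The summed blood markers ran from 1624 to 3926 in WT, which takes in every HET and KO sum.

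**Figure D4:**
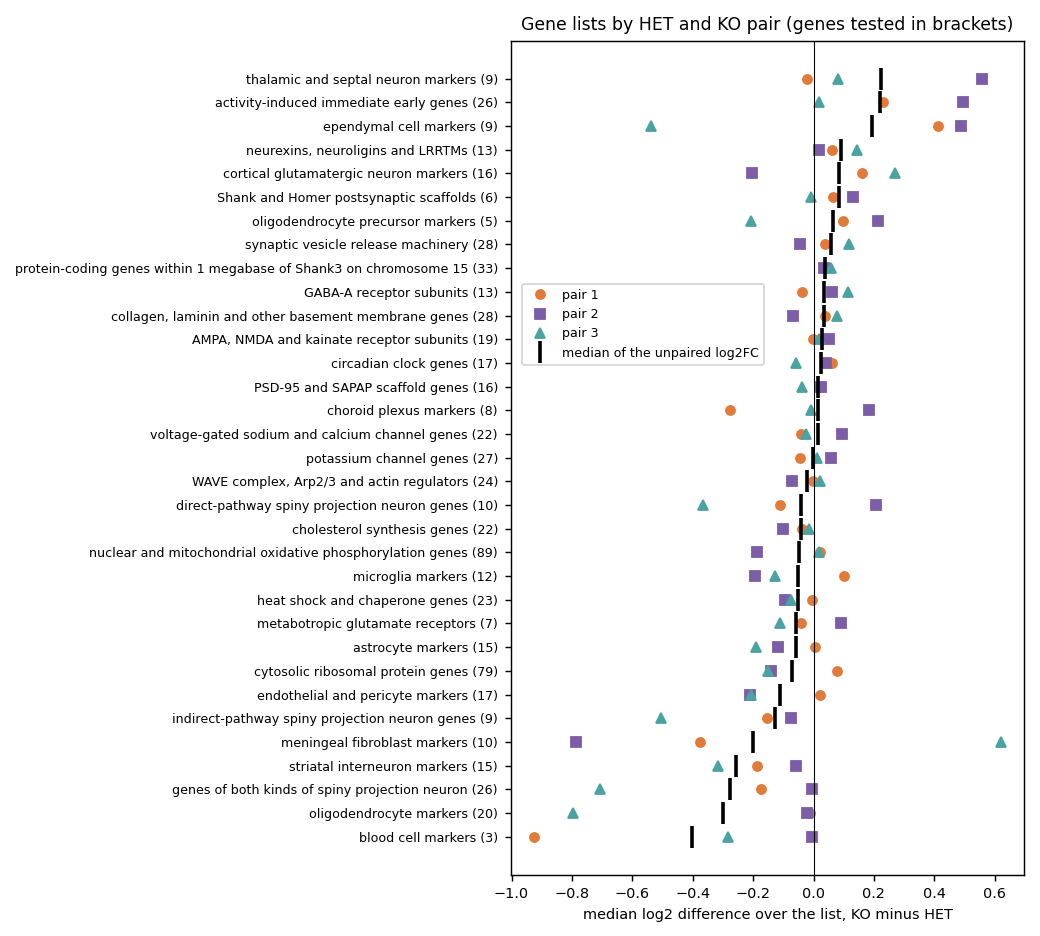
Median log2 difference of KO minus HET (horizontal axis) over each gene list (rows, with the number of genes tested in brackets), with circle, square and triangle for pairs 1, 2 and 3 and a bar for the median of the unpaired log2FC. Oligodendrocyte and spiny projection neuron genes have their pair 3 medians at −0.80 and −0.71 with the other pairs nearer to 0, and meningeal markers run from −0.79 to 0.62.

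Chromosomes 1 to 19 and X were compared, and those with few tested genes were left out. Of the 20 chromosomes compared, chromosome 15, which carries *Shank3*, had the highest share of genes with an unadjusted p under 0.05. This was 17 of 577 genes (2.95%) in the unpaired fit, against 1.31% of all genes, and 41 (7.11%) in the paired fit, against 4.95%. *Shank3* is among these genes. Of 33 protein-coding genes within 1 megabase of *Shank3*, 3 were higher at a paired p under 0.05 (2.68% of all genes) and 0 lower (2.28% of all genes), and their median log2FC was 0.039. *Cpne8*, a calcium-dependent membrane-binding protein, had 742, 758 and 858 normalized counts in HET and 898, 1025 and 922 in KO, without overlap. *Tubgcp6* and *Odf3b* were at 0.19 and 0.73, and *Odf3b* had at most 58.7 normalized counts in a library.

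The stretch from 10 to 15 megabases past *Shank3*, chosen after its values were seen, held 70 tested genes. Of these, 5 (7.14%, against 1.31% of all genes) had an unadjusted p under 0.05 in the unpaired fit. In the paired fit it was 12 (17.1%, against 4.95%). As the stretch was chosen by its values, these counts are a description only. The genes with a low p had both directions. *Acvrl1*, *Slc11a2* and *Cela1* (an elastase) were lower, with log2FC values of −0.94, −0.33 and −0.86, and *Cers5* and *Slc4a8* (a bicarbonate transporter) were higher, with 0.32 and 0.31. *Slc4a8* had 4424, 3879 and 3589 normalized counts in HET and 5376, 4827 and 4563 in KO, and each KO library was higher than all HET libraries. *Pde1b* and *Nr4a1*, which belong to the lists above, also lie in this stretch. Between 1 and 10 megabases past *Shank3*, 1 of 70 genes had an unadjusted p under 0.05 in the unpaired fit.

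**Figure D5:**
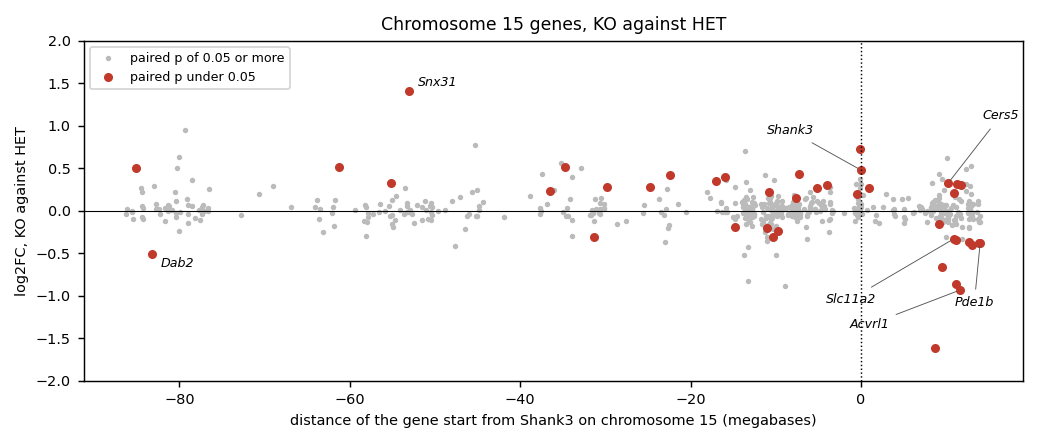
Log2FC of KO against HET (vertical axis) for the tested genes of chromosome 15 by the distance of their start from that of *Shank3* (horizontal axis, megabases), with larger red points where the unadjusted paired p is under 0.05 and a dotted line at *Shank3*. Red points on both sides of 0 gather at the right end, with 12 of 70 genes between 10 and 15 megabases (17.1%, against 4.95% of all genes).

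The place of WT was read from the libraries that the difference does not use. Over the 186 genes with an unadjusted p under 0.05 in the unpaired fit, the WT mean was nearer to HET for 92 (49.5%, against 45.5% of all genes) and nearer to KO for 94. *Shank3* and *Acvrl1* were among those with WT nearer to HET, and *Slc5a6* and *Homer2* among those with WT nearer to KO. The WT libraries enter the SE of this fit, so that genes with similar WT libraries reach a low p more easily, and no test is given.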

How the data were processed

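Striatal RNA of 9 male mice (3 WT, 3 HET and 3 KO) was sequenced, and genotypes and replicate numbers were taken from the labels. The authors estimated transcript abundance with Salmon 0.9.1 on GRCm38, summed it per gene and divided it by DESeq2 1.19.11 size factors, and this signal, normalized counts per gene, was deposited. Whole reads were not recovered (at best 42.4% of low values were within 0.05 of a multiple), so depth is unknown, no counting interval is given and precision comes from the spread between mice.

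Genes reaching 10 in 3 or more libraries were fitted as log2(value + 1) with limma 3.58.1 in R 4.3.3 (trend in the variance prior, 9 libraries, no covariate, contrast KO minus HET), followed by Benjamini-Hochberg adjustment over all genes tested (threshold 0.05). Fold changes on this scale understate those of low genes. The paired fit has the replicate number as a block over the 6 libraries. Same-numbered HET and KO libraries deviated together from their genotype means (r 0.515, 0.281 and 0.506, against −0.489 to 0.142 for other pairs). Each deviation is taken from a mean that holds the library itself, so that these correlations depend on each other. They are the reason for the paired fit and do not establish the pairing. For single values, two-sided exact permutation was used, which cannot give a p under 0.1 here. Libraries of a genotype come from separate mice.

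Named genes are *Shank3*, those without overlap and with the smallest p (10 a direction unpaired, 5 paired, mean of at least 100), and up to 4 members a list. Other list members, *Ndst4*, *Flnc* and *Cd300ld3* were named after their values were seen. The comparison and the 33 gene lists were chosen with earlier results of these data known, so their counts are descriptions. Symbols were found for 15462 genes in GENCODE. The fit was run on simulated data with independent noise in each library. Those data had no deviations shared by same-numbered libraries, so that they do not check the fits for data with such deviations. Alternatives were other pseudocounts, filters, normalizations, variance priors, sets of libraries, blocks, weights, an empirical null and leaving out libraries. Figures were drawn with matplotlib 3.10.9. Values of some members of the gene lists are not reported here, although the counts and medians include them.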

Additional observations from a re-analysis of the deposited data

How the results depend on the processing

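The count of 0 genes at an adjusted p under 0.05 was kept in all alternatives except an empirical null, with 2 genes (*Slc5a6* and *Cd300ld3*), and the paired fit without pair 3, with 20 (16 higher and 4 lower in KO), where 1 residual degree of freedom stands beside 13.09 of the prior. At an unadjusted p under 0.05 the count of 186 became 705 with the replicate block over 6 libraries, 318 with the replicate block over 9, 981 with an empirical null, and 591 with an empirical null and the replicate block. Without pair 1, 2 or 3 the paired fit gave 563, 954 and 848. Leaving out 1 library gave 141 (without KO replicate 2) to 303 (without HET replicate 2), and 288 without HET replicate 3. The fits without a pair and the empirical null with the block were chosen after seeing the data. No log2FC of the 27 named genes changed sign, and of their values over the alternatives 719 kept their side of the adjusted threshold and 8 passed it newly. No list median was tested, and 20 of the 33 changed sign under at least 1 alternative (62 values), most of them near 0 but also those of meningeal and ependymal markers. Of the values of the list medians 855 moved by less than the spread between mice and 36 by more. What causes these differences between settings was not tested.

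With 3 mice a genotype and a median SE of 0.152 (0.095 paired), small differences are not detectable, and a p above the threshold does not show that KO and HET are alike. Depth in reads cannot be used to weigh single genes.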

Other observations

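Channel genes held members on both sides. Of 27 potassium channel genes 3 were higher and 3 lower in KO at an unadjusted paired p under 0.05, against 2.68% and 2.28% of all genes, and the list median was −0.001. *Kcnab1*, a beta subunit of voltage-gated potassium channels, had 8168, 6207 and 9948 normalized counts in HET and 6634, 5348 and 4645 in KO, and its pairs differed by −0.30, −0.21 and −1.10. *Kcnj6*, an inward rectifier opened by G proteins, had a log2FC of 0.27 and pair differences of 0.21, 0.28 and 0.31. Of 22 sodium and calcium channel genes 2 were higher (*Cacna1g*, 0.15, and *Cacna2d1*, 0.16) and 2 lower (*Scn4b*, −0.60, and *Cacna2d3*, −0.22).

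Of 22 cholesterol synthesis genes 3 were lower at that paired p, against 2.28% of all genes, among them *Mvd*, an enzyme of the mevalonate pathway, with 939, 756 and 959.5 in HET and 782, 618 and 805 in KO and pair differences of −0.26, −0.29 and −0.25. Of 28 collagen and laminin genes 3 were higher, against 2.68%, with *Col6a1* at 0.42, and 1 lower, *Lamc1*, at −0.25. The clock genes *Per2* and *Dbp* were at 0.25 and −0.24 among 17, and the chaperones *Hspa1a* and *Hsph1* at 0.24 and −0.18 among 23. Of these 23 heat shock and chaperone genes, 19 had a log2FC below 0 and 4 above, with a median of −0.051. All 3 pairs were below 0 for 7, against 12.6% of all genes, and above 0 for 2, against 12.9%. No gene of 24 actin regulators and none of 89 oxidative phosphorylation genes had a paired p under 0.05, and 2 of 79 ribosomal protein genes were lower, against 2.28%.

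Some genes passed the adjusted threshold of limma in the paired fit without pair 3, and no other setting called them. *Dlx1*, a homeobox factor of GABAergic neurons, had 469, 466 and 589.5 in HET and 703, 1135 and 572 in KO, so that KO replicate 3 lay within HET. *Mid1*, a microtubule-associated ubiquitin ligase, had 1039, 407 and 1172 in HET and 1555, 1032 and 1967 in KO, higher in KO in each pair. *Klhl14* had 36.4, 80.5 and 63.5 in HET, 81.3, 272 and 83.7 in KO and 220.0, 67.8 and 54.7 in WT, and was thus high in KO replicate 2 and WT replicate 1, as *Ndst4*, *Abi3bp* and *Nmbr* were.

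Some values of 0 stood out. *Uvssa*, a gene of transcription-coupled repair, was listed at 0 in replicate 3 of HET and of KO, and had 438 and 401 in the other HET and 533 and 479 in the other KO libraries. *Hspa4l* was listed at 0 in the same libraries, beside 274, 150.3, 142 and 275. These 2 genes were at 0 in both libraries of replicate 3 with at least 50 in the other 4, and for replicates 1 and 2 the count was 0. *Flnc*, which encodes filamin C, was listed at 53.6, 19.6 and 92.0 in HET and 0, 16.3 and 0 in KO, and *Cd300ld3* at 5.30, 11.7 and 2.17 in HET and at 0 in all 3 KO libraries. Genes of the CD300 family are alike in sequence, and reads can be divided between them.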
